A study of Mus musculus with 3 samples.

Results

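Cells repair broken or crosslinked DNA during replication by homologous recombination and by the Fanconi anaemia pathway, and they halt the cell cycle through the ATM and ATR kinases while repair goes on. In recombination, the MRN complex and its partners trim the broken ends, BRCA1 and BRCA2 prepare the trimmed strand for pairing with an intact copy, and helicases and nucleases resolve the joined strands. The Fanconi core complex attaches ubiquitin to FANCD2 and FANCI at crosslinks between the strands. Dividing neural progenitors of the embryonic cortex depend on some of these genes, and loss of several of them causes small brains in humans or mice. The 38 genes described here were listed by name as members of these pathways, out of 21951 protein-coding genes in GENCODE M21.

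ChIP-seq was performed on cortices of E13.5 mouse embryos, with a library of input, a library of NF-Y-ChIP, for which NF-YC was precipitated, and a library of H3K4me3-ChIP. The labels name no genotype, strain or treatment for these cortices, and the tissue mixes progenitors with the neurons they produce. The peak lists hold no expression values, so the tissue was not checked against marker genes. NF-Y is a transcription factor of 3 different subunits, NF-YC among them, that binds CCAAT, which reads ATTGG on the other strand, and H3K4me3 is a histone mark of active promoters. The peak lists of the NF-Y-ChIP (733 peaks) and the H3K4me3-ChIP (18816 peaks) were read on the mm10 (GRCm38) assembly, and the input was not analysed here. Since each antibody had 1 library, replicate error could not be measured and no test was made. The read depth is unknown, and intervals are Wilson 95% confidence intervals that describe the sampling of genes only. Fold enrichment is the signal at the summit of a peak over a local background, as MACS2 gives it.

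Brca1, Chek2 and Xrcc3, 3 of the 38 genes (7.89%, interval 2.72 to 20.8%), had the summit of an NF-Y-ChIP peak no farther than 1 kb from a transcription start site (TSS). Such a summit is called a promoter summit below, and genes whose TSS had an H3K4me3-ChIP peak at most 1 kb away are called marked genes. A promoter summit was present for 5.03% of the 13767 marked protein-coding genes and for 3.17% of all protein-coding genes, so the share of the repair genes was close to the background. Brca1 had 2 NF-Y-ChIP peaks, and the other two had 1 each. Every one of these summits lay on the upstream side of the repair gene's own TSS, between that gene and a neighbour transcribed the opposite way or, in the case of the second Brca1 peak, inside that neighbour. The reference sequence 50 bp to each side of every summit is shown here because it carries the CCAAT elements nearest the summits. Which element was bound was not tested. The sequence is written on the strand of the repair gene, with each CCAAT or ATTGG in capitals.
Brca1, peak nearer its TSS (chr11:101551984-101552084, minus strand): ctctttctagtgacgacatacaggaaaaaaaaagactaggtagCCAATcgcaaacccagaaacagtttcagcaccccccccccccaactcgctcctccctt
Brca1, peak farther from its TSS (chr11:101552685-101552785, minus strand): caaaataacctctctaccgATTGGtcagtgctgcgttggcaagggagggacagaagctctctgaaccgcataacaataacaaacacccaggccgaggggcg
Chek2 (chr5:110839875-110839975, plus strand): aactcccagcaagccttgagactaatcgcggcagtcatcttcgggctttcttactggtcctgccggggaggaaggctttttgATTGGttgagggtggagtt
Xrcc3 (chr12:111813975-111814075, minus strand): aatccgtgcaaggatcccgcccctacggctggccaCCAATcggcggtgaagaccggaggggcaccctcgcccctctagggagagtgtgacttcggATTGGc

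Brca1 encodes the ubiquitin ligase that, with its partner BARD1, directs broken ends into recombination. On chromosome 11, it occupies 101488764 to 101551955 of the minus strand. Its nearer NF-Y-ChIP peak spanned 101551929 to 101552099, across the annotated 5′ end, with a summit 79 bp upstream of the TSS and a fold enrichment of 5.57. This peak ranked 505 of 733 by fold enrichment, in the weaker part of the list, and its −log10 q-value was 3.46. The CCAAT nearest the summit was centred 5 bp from it, on the strand of Brca1. The farther peak spanned 101552659 to 101552840 and had a fold enrichment of 6.79, rank 347, and a −log10 q-value of 8.30. Its summit was at −780 bp from Brca1 but 81 bp downstream of the nearest TSS of Nbr1, the autophagy receptor gene on the opposite strand, in an annotated exon of Nbr1. Of the 695 protein-coding genes with a promoter summit, 2.16% had at least 2, so the pair at Brca1 was an uncommon arrangement. Both peaks lay inside the same H3K4me3-ChIP peak of 2672 bp, the widest among the 38 genes.

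Chek2 encodes the checkpoint kinase CHK2, which ATM activates at double-strand breaks. On chromosome 5, it occupies 110839979 to 110874145 of the plus strand. The NF-Y-ChIP peak there spanned 110839692 to 110840095, had a fold enrichment of 16.8 and ranked 34 of 733, which made it the strongest peak at any of the 38 genes and placed it among the strongest of the list. The −log10 q-value was 33.4 and the width 404 bp, against a median of 224 bp over all NF-Y-ChIP peaks. The summit lay 54 bp before the start of Chek2. An ATTGG was centred 34 bp from this summit and −20 bp from the TSS. Hscb, which encodes a cochaperone of iron-sulphur cluster assembly, starts at −202 bp from Chek2 on the other strand, and the summit was upstream of that gene too.

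Xrcc3 encodes a recombination factor that forms a complex with the product of Rad51c. On chromosome 12, it occupies 111803192 to 111813873 of the minus strand. Its NF-Y-ChIP peak spanned 111813955 to 111814135, with a fold enrichment of 6.16, rank 436 and a −log10 q-value of 5.57. Its summit was almost at the midpoint between this gene and Zfyve21, 152 bp upstream of Xrcc3 and 145 bp upstream of Zfyve21, so the data do not assign the peak to either gene. This summit had the richest surrounding sequence of the 4, with 5 CCAAT elements within 100 bp, against 1 at Chek2, 1 at the nearer Brca1 peak and 2 at the farther. All 4 summits had CCAAT within 50 bp, as did 88.1% of all NF-Y-ChIP peaks.

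**Figure D1:**
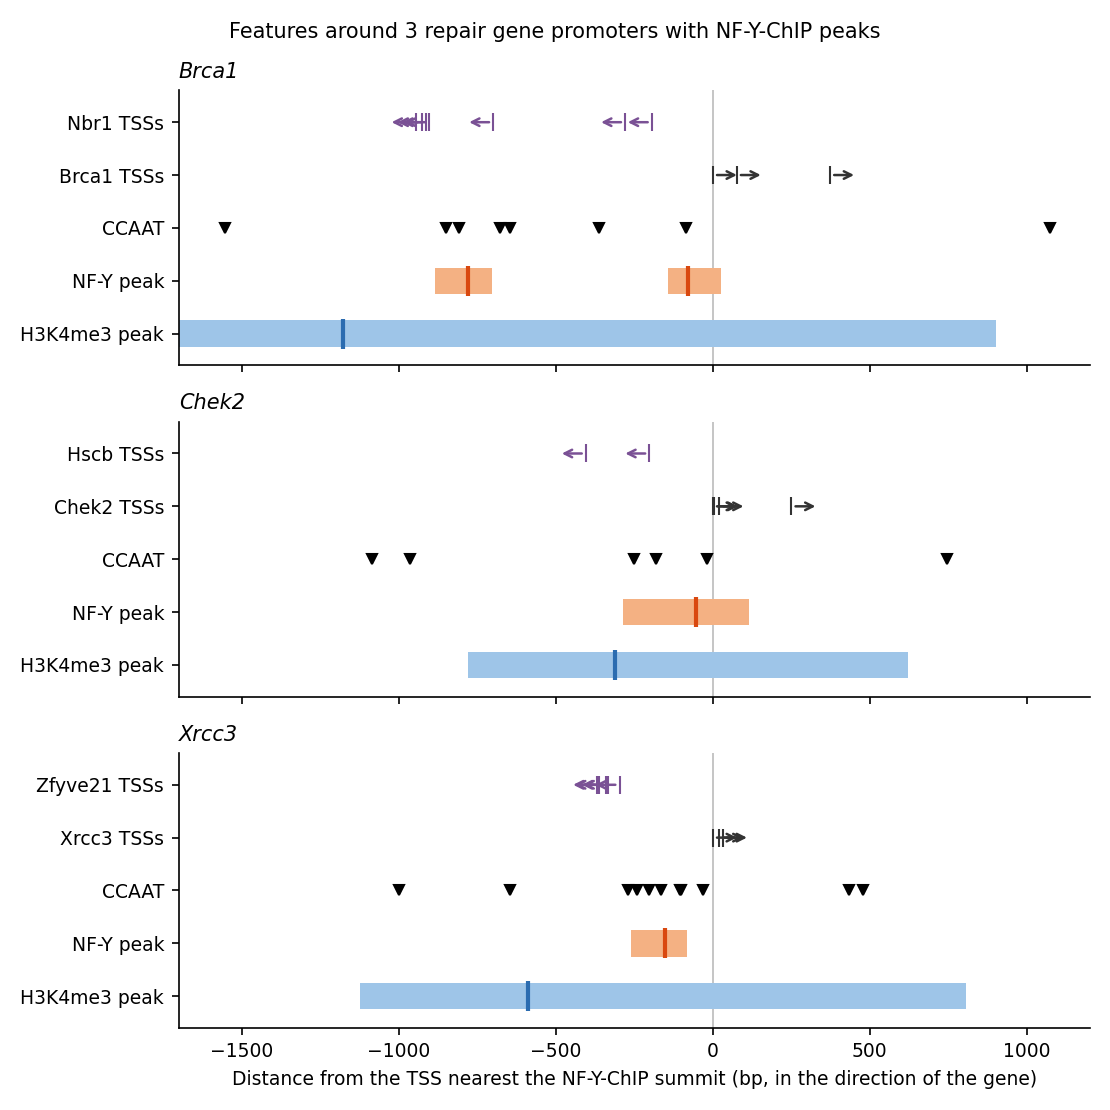
Maps of the promoters of Brca1, Chek2 and Xrcc3, with the distance from the TSS nearest the NF-Y-ChIP summit in bp on the horizontal axis. Bars are peaks with the summit as a vertical line, triangles are CCAAT on either strand and arrows are annotated TSSs. The NF-Y-ChIP summits lie 54 to 152 bp upstream of the repair gene, with a second Brca1 peak at −780 bp among the TSSs of Nbr1.

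The other 35 genes had no promoter summit. The study counted as targets the genes that held a peak or had it at most 5 kb upstream. By that rule the same 3 genes were targets, while 3.69% of all protein-coding genes were. Fancg, a subunit of the Fanconi core complex, was the gene with the next nearest summit, at 3359 bp from a TSS of a Fancg transcript. That peak lay on chromosome 4 from 43000428 to 43000635, beyond the 3′ end of Fancg, with a fold enrichment of 7.65, and its nearest TSS was that of Vcp, 66 bp away, which encodes a segregase of ubiquitinated proteins. Its sequence shows ATTGG 18 bp from the summit, in chr4:43000535-43000575, minus strand.
Near Fancg, at Vcp: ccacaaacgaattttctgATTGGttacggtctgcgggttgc
For the other 34 genes the nearest summit was at least 22228 bp away, and the median over the 35 genes was 950439 bp. The genes without a summit comprised all 8 listed here for the Fanconi core complex, Fancd2 and Fanci, all 9 listed for end resection, helicases and nucleases, and all 3 of MRN. NF-Y-ChIP was detected at 1 of 4 BRCA genes and partners, 1 of 7 strand pairing and exchange factors and 1 of 5 checkpoint genes. Of all marked genes 5.03% had a promoter summit, so counts of 0 or 1 in groups this small do not set the roles apart. These counts hold for this peak list, in which weaker binding would give no peak.

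An H3K4me3-ChIP peak covered a TSS in all 38 genes, and in 37 of them, all but Mus81, the strongest peak within 1 kb did, while 62.7% of all protein-coding genes were marked genes. The median fold enrichment of the strongest peak per gene was 45.8 (interquartile range 34.3 to 55.8), with values from 17.3 to 76.4. For all marked genes the median was 39.9 (interquartile range 25.7 to 52.7). Of the 38 genes, 27 were above the median of marked genes (71.1%, interval 55.2 to 83.0%), although the middle ranges overlapped widely. Peak widths had a median of 1357 bp (range 731 to 2672 bp), close to the 1404 bp of all marked genes. The summit of the strongest peak lay a median of 94 bp downstream of the nearest TSS.

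Among the BRCA genes and their partners, Brca1 had an H3K4me3-ChIP fold enrichment of 62.3, higher than in 87.6% of marked genes. Its H3K4me3-ChIP summit was at −1177 bp from the nearest Brca1 TSS, on the side of Nbr1, so the mark at Brca1 cannot be told apart from that at its neighbour. The same holds for Xrcc3 and Chek2, where it was at −589 and −310 bp. Brca2, a mediator of recombination and a tumour suppressor, had a value of 55.6. Palb2, the bridge between BRCA1 and BRCA2, had 50.5. For Bard1, the partner that stabilises BRCA1, it was 42.2, the lowest of these 4 and still above the median of marked genes.

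The strand pairing and exchange factors spread more widely. Rad51ap1, which promotes the pairing of strands, reached 56.7, and the translocase gene Rad54b reached 55.4. The recombination factor genes Rad51d and Rad51c had 46.2 and 43.4, and Xrcc2, whose product forms a complex with that of Rad51d, had 34.5. The translocase gene Rad54l had 26.2 and Xrcc3 had 25.9. These last values lay near the lower quartile of marked genes, so at Xrcc3 an NF-Y-ChIP peak stood beside a weak H3K4me3-ChIP peak, whereas Rad54l combined a similar mark with no NF-Y-ChIP peak.

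Among the 8 listed genes of the Fanconi core complex, Fancl, the ubiquitin ligase subunit, had the highest fold enrichment of H3K4me3-ChIP with 62.2. The core subunit genes Fancg, Fance and Fancc followed with 55.9, 53.9 and 47.3. Fancm, the translocase that anchors the complex to DNA, had 44.0. Lower values were found for Fancf (34.2), Fanca (26.8) and the X-linked Fancb (24.7). The core genes thus covered both sides of the middle 50% of marked genes. Of the monoubiquitinated pair, Fancd2 had 64.5 and Fanci, its partner, had 17.3, the lowest of the 38 genes and higher than in 14.1% of marked genes. The H3K4me3-ChIP summits of Fancd2 (−201 bp) and Fancb (−381 bp) lay beyond the start of a divergent neighbour, at −30 and −217 bp, so their marks cannot be told apart from those of Emc3 and Mospd2.

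For end resection, helicases and nucleases, H3K4me3-ChIP was strongest at Rbbp8 (64.8), which encodes the resection factor CtIP, and at the helicase gene Brip1 (64.4). Ercc4, which encodes the XPF nuclease, had 61.4 and Slx4, the scaffold of structure-specific nucleases, had 53.7. Eme1 and Dna2, a nuclease subunit and a nuclease-helicase, had 44.8 and 43.7. The exonuclease gene Exo1 had 33.3, and Blm, the Bloom syndrome helicase, had 32.5. Mus81, the catalytic partner of EME1, had 22.3 in the stronger of 2 H3K4me3-ChIP peaks, which lay upstream of the gene with its summit at −950 bp and covered no TSS. The weaker peak, with 15.1, covered 6 of its TSSs. Only Mus81 and Rad51c had 2 such peaks (5.26% of the 38 genes, against 14.8% of marked genes).

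The MRN sensor genes had fold enrichments of 62.3 for Nbn, 43.0 for Mre11a and 41.7 for Rad50. The summit at Mre11a (−145 bp) also lay beyond a neighbour's start, that of Ankrd49 at −104 bp. Among the checkpoint genes, Atr, the kinase that senses single-stranded DNA, had 76.4, the highest of the 38 genes and above 98.1% of marked genes. Its effector kinase Chek1 had 50.6, and Atm, the kinase that senses double-strand breaks, had 50.4, with a summit at −438 bp, beyond the start of its neighbour Npat at −307 bp. Topbp1, the activator of ATR, had 45.5. Chek2 had 34.1, the lowest of these 5, although its NF-Y-ChIP peak was the strongest at any of the 38 genes. The values of the NF-Y-ChIP genes, 25.9, 34.1 and 62.3, lay within the range of the other 35 genes.

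**Figure D2:**
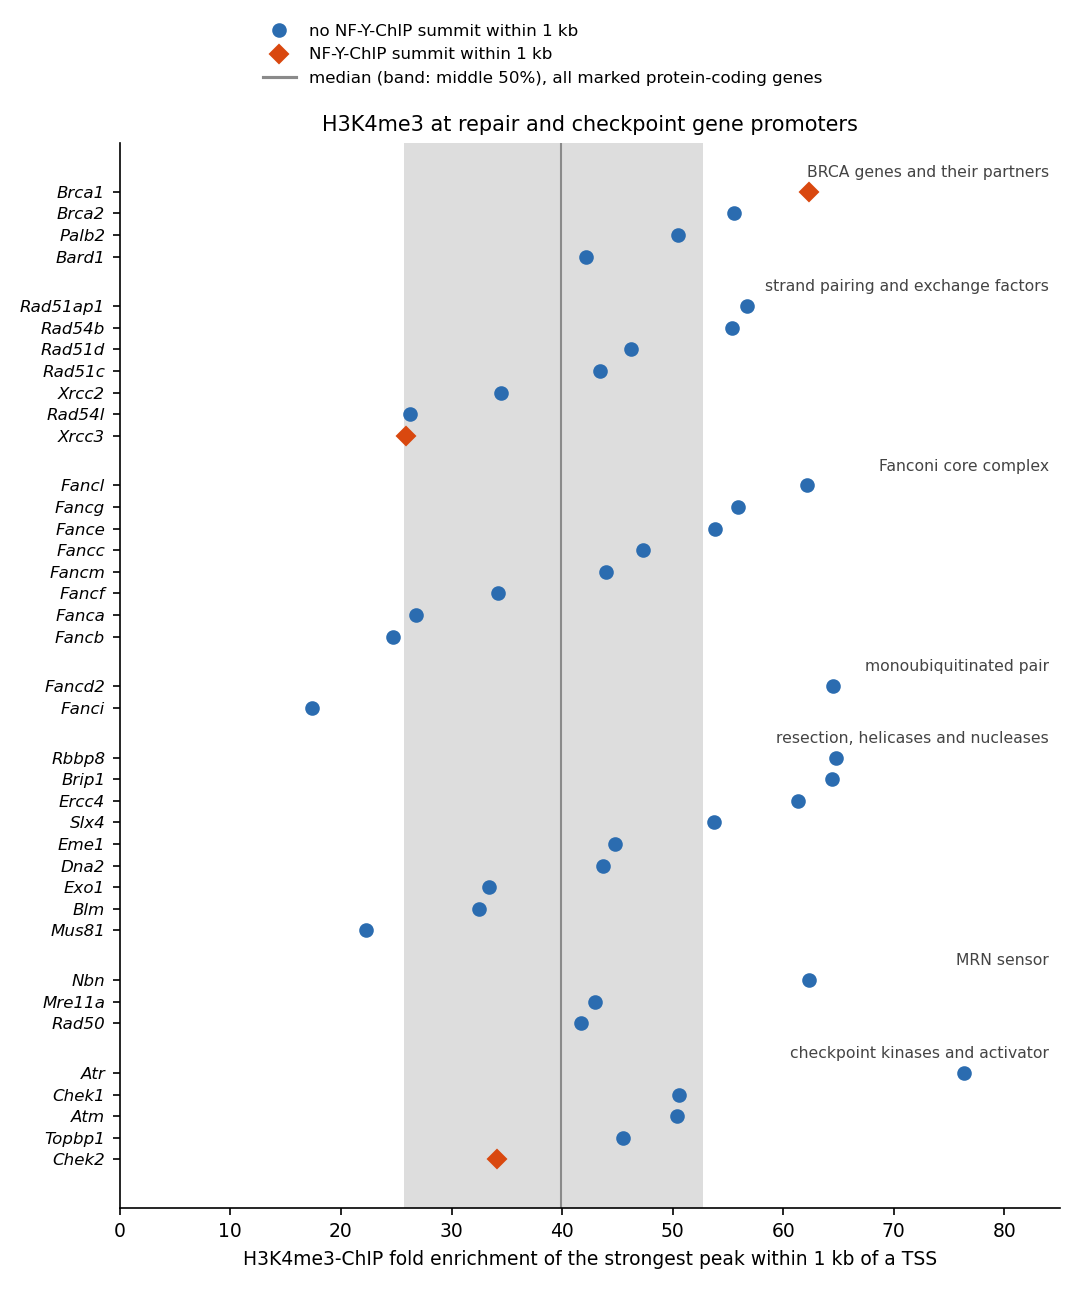
Fold enrichment of the strongest H3K4me3-ChIP peak for each of the 38 genes, grouped by role. Diamonds are genes with a promoter summit of NF-Y-ChIP, and the grey line and band are the median of 39.9 and the middle 50% of all marked genes. By the strongest peak, Fanci is lowest at 17.3 and Atr highest at 76.4, and the diamonds are spread over the range.

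The sequence at the promoters was examined in windows from 250 bp before to 50 bp after each TSS that lay inside an H3K4me3-ChIP peak, called a marked TSS. CCAAT on either strand was present for 20 of the 38 genes (52.6%, interval 37.3 to 67.5%), against 44.4% of marked genes. At any TSS, marked or not, the counts were 28 genes (73.7%) and 66.5% of marked genes, and in the 100 bp before any TSS they were 20 genes and 43.6%. With gene 5′ ends only they were 18 genes and 38.1%, and for the extended consensus RRCCAATSR at any TSS they were 8 genes and 22.6%. The genes Brca1, Chek2 and Xrcc3 were among these 20, so 17 genes had CCAAT at a marked TSS and no promoter summit. With CCAAT at a marked TSS, 15% of the repair genes (3 of 20, interval 5.24 to 36.0%) and 10.4% of all marked genes had a promoter summit, and with CCAAT at any TSS 7.24% of marked genes did. Among marked genes the share was higher with more CCAAT positions, from 0.732% with none to 4.01% with 1, 12.4% with 2 and 28.2% with 3 or more. The 17 genes had 1 position in 8 cases, 2 in 6 and 3 or more in 3 (Fancf, Brip1 and Blm).

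The 17 genes without a summit included Palb2 and Atm, in which the CCAAT nearest a marked TSS was downstream of it, at 3 and 27 bp. In Fancc, Fance, Fanci, Exo1 and Ercc4 it was centred between −240 and −137 bp. In the remaining 10 genes it lay between −64 and −21 bp. By the same measure it was at −20 bp in Chek2, −31 bp in Xrcc3 and −84 bp in Brca1. The CCAAT nearest the summit, a different measure, was at −20 bp in Chek2 and −165 bp in Xrcc3. It was at −84 and −809 bp for the nearer and farther peaks of Brca1. The sequences of 9 of the 10 genes are shown on the strand of the gene, with CCAAT or ATTGG in capitals, because their CCAAT was not accompanied by a peak.
Rad51ap1 (chr6:126939606-126939636, minus strand): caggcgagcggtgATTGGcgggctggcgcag
Rad54b (chr4:11558843-11558873, plus strand): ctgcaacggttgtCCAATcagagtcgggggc
Fanca (chr8:123318582-123318612, minus strand): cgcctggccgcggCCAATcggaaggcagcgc
Fancb (chrX:164980652-164980682, plus strand): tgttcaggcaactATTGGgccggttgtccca
Fancf (chr7:51862281-51862311, minus strand): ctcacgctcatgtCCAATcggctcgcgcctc
Fancm (chr12:65075527-65075557, plus strand): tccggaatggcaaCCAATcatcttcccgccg
Brip1 (chr11:86201210-86201240, minus strand): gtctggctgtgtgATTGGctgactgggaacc
Blm (chr7:80535142-80535172, minus strand): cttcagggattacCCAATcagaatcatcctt
Mre11a (chr9:14784603-14784633, plus strand): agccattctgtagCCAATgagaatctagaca

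Words of the E2F motif were searched in the same windows. E2F factors bind sequences near the TSS of many genes of the G1/S transition, and the words searched on either strand were TTGGCGC, then the word TTCGCGC, and also the word TTCCCGC. A word was present in the window of a marked TSS for 25 of the 38 genes (65.8%, interval 49.9 to 78.8%), against 23.1% of marked genes. At any TSS the counts were 26 genes (68.4%) and 26.3% of marked genes, and without the word TTGGCGC they were 25 genes and 20.3%. The windows of the repair genes were slightly poorer in G and C, with a median of 59.6% against 63.3%. Between 56.5 and 62.5% GC, the middle range of the repair genes, 14 of 19 repair genes (73.7%) and 23.2% of marked genes had a word. The word nearest a marked TSS was within 50 bp of it in 18 of the 25 genes (72.0%, interval 52.4 to 85.7%), against 49.5% of the marked genes with a word. Of the 30 words found, 1, at Fancf, overlapped a CCAAT. A word in the reference sequence is not evidence of binding, and no E2F ChIP was part of the series.

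E2F words without CCAAT were present for 13 genes: Brca2, Bard1, Rad51c, Rad51d, Xrcc2, Fancg, Fancl, Fancd2, Rbbp8, Rad50, Nbn, Chek1 and Topbp1. None of these had a promoter summit. Both E2F words and CCAAT were present for 12 genes, among them Brca1 and Chek2, and CCAAT without E2F words for 8, among them Xrcc3. Dna2, Slx4, Eme1, Mus81 and Atr had neither. The sequences around the word nearest a marked TSS are shown for 10 of the 11 genes with E2F words within 50 bp and no CCAAT (Rbbp8 is not shown). These genes were chosen for having such a word, so the sequences do not show what replaces CCAAT. They are written on the strand of the gene, with the E2F words in capitals.
Bard1 (chr1:71103162-71103192, minus strand): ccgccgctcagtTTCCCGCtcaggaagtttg
Rad51c (chr11:87404476-87404506, minus strand): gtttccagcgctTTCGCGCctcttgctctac
Rad51d (chr11:82890535-82890565, minus strand): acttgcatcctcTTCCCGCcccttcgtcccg
Xrcc2 (chr5:25705760-25705790, minus strand): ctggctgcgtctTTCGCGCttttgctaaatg
Fancg (chr4:43010334-43010364, minus strand): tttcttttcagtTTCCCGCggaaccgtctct
Fancd2 (chr6:113531693-113531723, plus strand): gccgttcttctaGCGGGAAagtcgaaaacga
Rad50 (chr11:53707287-53707317, minus strand): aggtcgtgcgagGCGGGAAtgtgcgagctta
Nbn (chr4:15957923-15957953, plus strand): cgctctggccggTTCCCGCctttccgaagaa
Chek1 (chr9:36726597-36726627, minus strand): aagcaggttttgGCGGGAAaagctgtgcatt
Topbp1 (chr9:103305186-103305216, plus strand): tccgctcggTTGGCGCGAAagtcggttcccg
At Topbp1, which had 3 words, the capitals hold TTGGCGC and, overlapping it on the other strand, TTCGCGC.

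**Figure D3:**
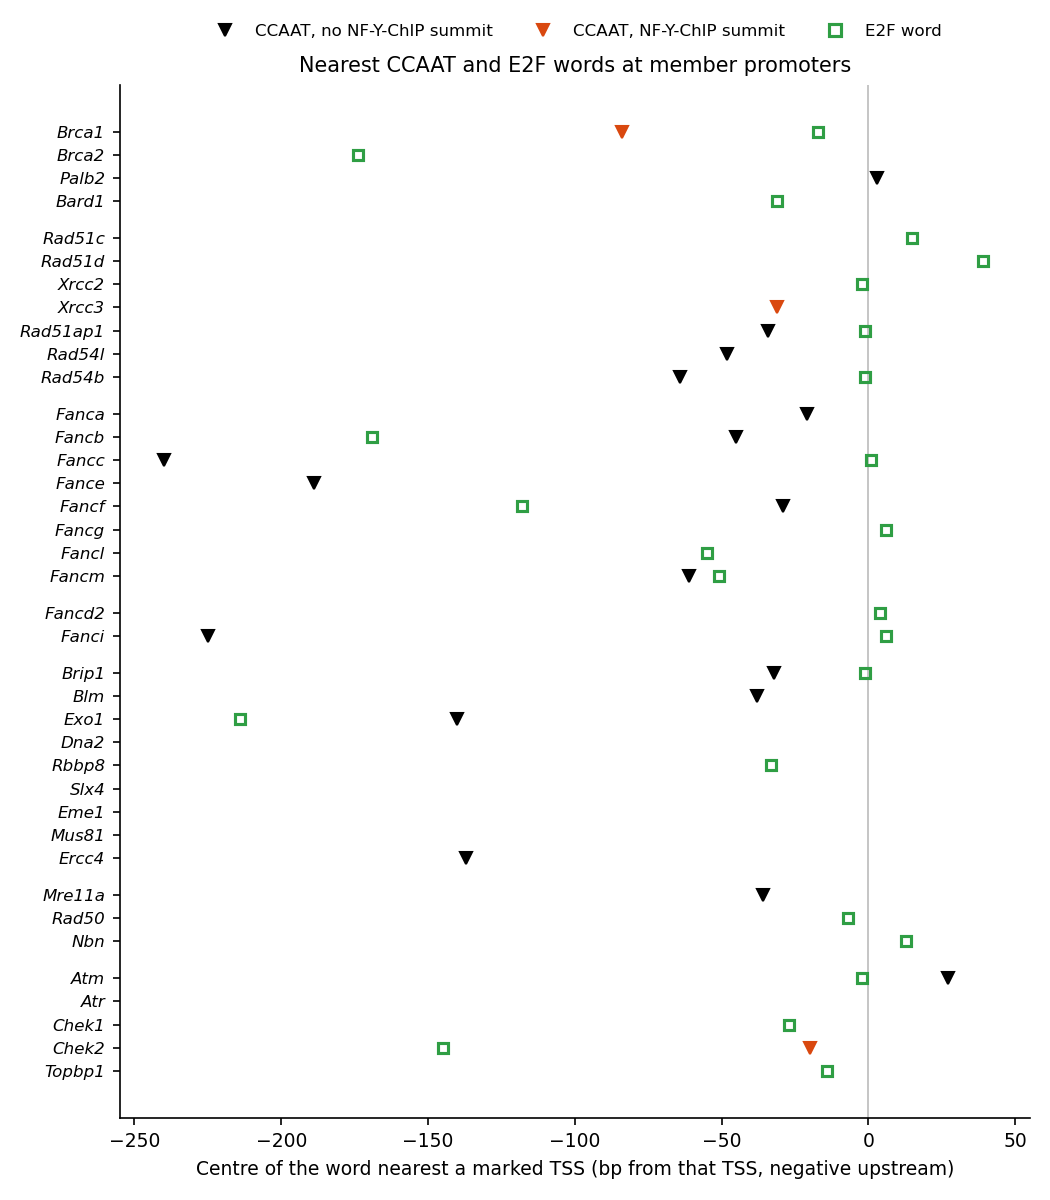
Centre of the CCAAT (triangles) and of the E2F word (squares) nearest a marked TSS at each of the 38 genes, in bp from that TSS. Orange triangles are genes with a promoter summit of NF-Y-ChIP. Of the 25 squares, 18 lie within 50 bp of the TSS, and most triangles lie upstream of it.

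Other promoter words were searched in the same windows, on either strand. The ETS word CCGGAAG was at a marked TSS of 16 genes (42.1%, interval 27.9 to 57.8%), against 22.1% of marked genes, and was present at Slx4, Eme1, Mus81 and Atr, 4 of the 5 genes with neither CCAAT nor E2F words. The CHR word TTTGAA, an element of many G2/M genes, was at a marked TSS of 5 genes (13.2%), against 14.7% of marked genes. The CRE word TGACGTC was at 4 genes (10.5%), against 7.38%. At any TSS, the ETS word was present for 19 genes (50%) against 25.2% of marked genes, the CHR word for 24 (63.2%) against 39.8% and the CRE word for 5 (13.2%) against 9.36%. The repair genes had a median of 6.5 annotated TSSs and marked genes of 5, so counts over any TSS search more windows in the repair genes. Counts at marked TSSs were not matched either. All 38 repair genes had a marked TSS, against 13276 of the 13767 marked genes. With gene 5′ ends only, E2F words were present for 39.5% of the repair genes and 14.3% of marked genes.

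Promoters shared with a neighbour were frequent among the repair genes. A protein-coding gene of the opposite strand started within 1 kb upstream of 14 of the 38 genes (36.8%, interval 23.4 to 52.7%), at 30 to 375 bp, against 16.7% of marked genes. All 3 genes with promoter summits were among these 14, and the 24 genes without such a neighbour had none, which allows a share of up to 13.8%. The share of NF-Y-ChIP genes was thus 21.4% with a divergent neighbour (interval 7.57 to 47.6%). Among all marked genes it was 8.04% with and 4.42% without a divergent neighbour. A peak in such a promoter counts for both genes. The other 11 repair genes with a divergent neighbour were Palb2, Rad51c, Rad51ap1, Rad54l, Fancb, Fancf, Fancd2, Eme1, Mre11a, Atm and Topbp1.

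Other genes of DNA repair and its checkpoints were taken from a list of 62, which holds replication protein A, further Fanconi and BRCA complex subunits, checkpoint clamps and end-joining factors. A promoter summit was present for 10 of them (16.1%, interval 9.0 to 27.2%), against 5.03% of marked genes, and all 62 were marked genes. The interval overlaps that of the 38 genes. Recql, a RecQ helicase gene, had the highest fold enrichment of NF-Y-ChIP among these, 17.3, with the summit at −14 bp. Usp1, which removes ubiquitin from FANCD2, had 10.6, but its summit was at −483 bp. Rpa2, a subunit of replication protein A, and Rfwd3, a ubiquitin ligase of the Fanconi pathway, both had 9.87, at −7 and −140 bp. Mdc1, a mediator at phosphorylated histone H2AX, had 7.78. The Bloom complex subunit Rmi2 had 6.26, and Ube2t, the conjugating enzyme that works with FANCL, had 5.88. Rpa3 had 5.11, the Fanconi-associated Faap24 had 4.55 and the end-joining nuclease gene Dclre1c had 4.4. The Faap24 summit was nearer to a TSS of its divergent neighbour Cep89 (−38 bp) than to that of Faap24 (−161 bp).

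The sequence of 41 bp centred on the CCAAT nearest each of these summits is shown on the strand of the gene, because these are the elements nearest the summits.
Recql (chr6:142387081-142387121, minus strand): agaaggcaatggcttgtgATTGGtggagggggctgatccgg
Usp1 (chr4:98923316-98923356, plus strand): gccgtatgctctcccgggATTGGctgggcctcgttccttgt
Rpa2 (chr4:132768290-132768330, plus strand): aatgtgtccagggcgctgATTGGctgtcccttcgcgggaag
Rfwd3 (chr8:111300346-111300386, minus strand): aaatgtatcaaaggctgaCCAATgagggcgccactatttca
Mdc1 (chr17:35841405-35841445, plus strand): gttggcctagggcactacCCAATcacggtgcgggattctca
Rmi2 (chr16:10835006-10835046, plus strand): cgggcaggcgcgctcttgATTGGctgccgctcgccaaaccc
Ube2t (chr1:134962467-134962507, plus strand): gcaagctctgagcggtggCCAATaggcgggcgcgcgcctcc
Rpa3 (chr6:8259174-8259214, minus strand): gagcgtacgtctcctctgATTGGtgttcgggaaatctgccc
Faap24 (chr7:35397012-35397052, minus strand): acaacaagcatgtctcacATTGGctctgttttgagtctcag
Dclre1c (chr2:3424043-3424083, plus strand): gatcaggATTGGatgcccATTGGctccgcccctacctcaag

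**Figure D4:**
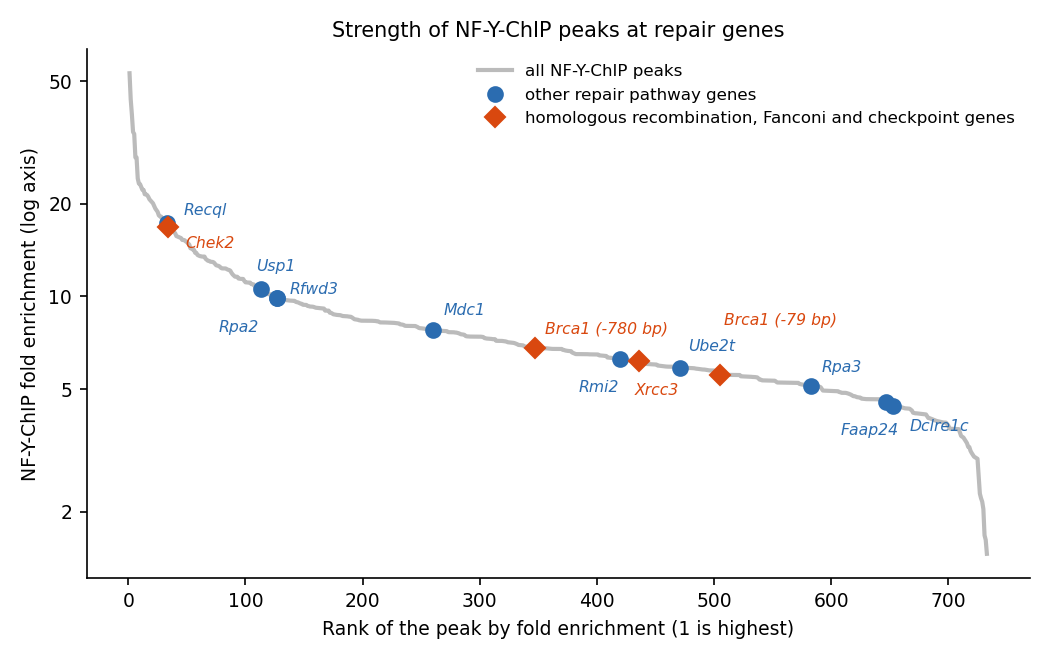
Fold enrichment of all 733 NF-Y-ChIP peaks by rank (grey, log axis), with the 4 peaks at Brca1, Chek2 and Xrcc3 (diamonds) and the 10 at other repair pathway genes (circles). Chek2 (rank 34) and Recql (rank 33) stand in the strong part, and the other diamonds lie between ranks 347 and 505.

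The 38 genes were set beside 2 lists of cell cycle genes, without a test of the differences. Promoter summits were present for 5 of 42 DNA replication genes (11.9%, interval 5.19 to 25%). They were found for 4 of 39 kinetochore and spindle checkpoint genes (10.3%, interval 4.06 to 23.6%). The share of all marked genes was 5.03%. The intervals of these lists and of the 38 repair genes overlap one another. For E2F words at a marked TSS the lists were further apart, with 71.4% of the replication genes and 53.2% of the 62 other repair genes, but 28.2% of the kinetochore genes. The repair genes, with 65.8%, stood nearer to the replication genes in this respect. Divergent neighbours were present for 31% of the replication genes, 30.8% of the kinetochore genes and 40.3% of the other repair genes, so they were not particular to the 38 genes.

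**Figure D5:**
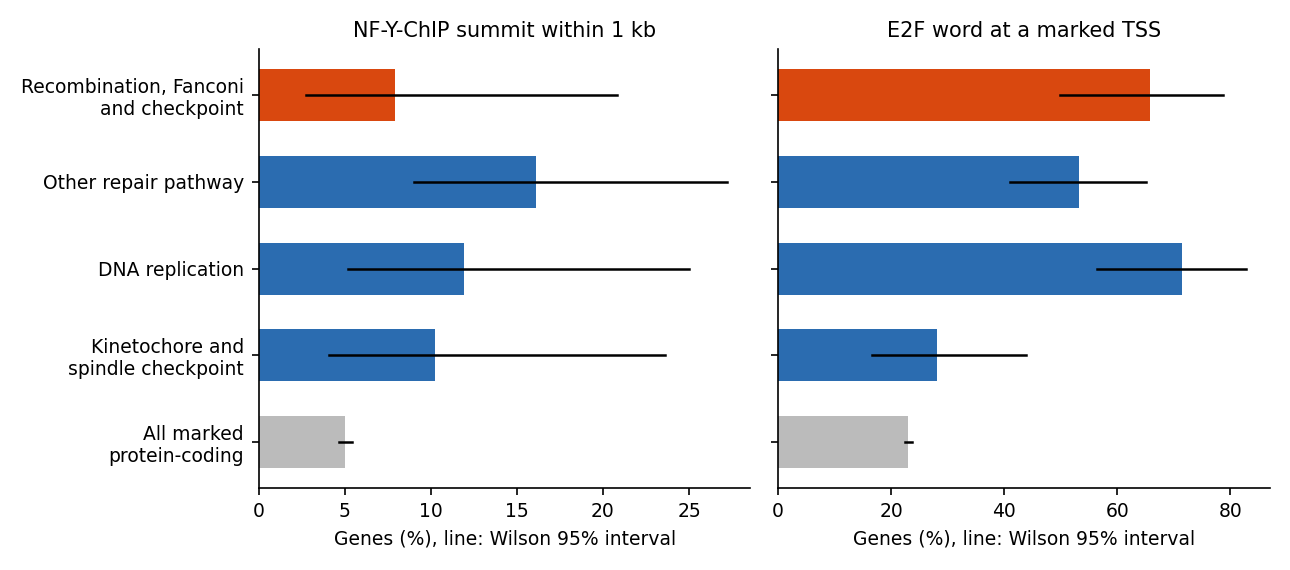
Share of genes with a promoter summit of NF-Y-ChIP (left) and with an E2F word at a marked TSS (right), in 4 gene lists and in all marked genes, in percent with Wilson 95% intervals as lines. The intervals for NF-Y-ChIP overlap among the 4 lists, and for E2F words the kinetochore list (28.2%) lies near all marked genes (23.1%).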

How the data were processed

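The values come from ChIP-seq peak lists of E13.5 mouse cortices, with 1 library each for NF-Y-ChIP and H3K4me3-ChIP. Reads were trimmed by the authors (Trimmomatic), aligned to mm10 (GRCm38) using Bowtie2 2.2.8, and peaks were called using MACS2 2.1.2 (versions per the submitters' processing notes). Thresholds were set on the p-value (0.001) in NF-Y-ChIP and on the q-value (0.05) in H3K4me3-ChIP. The study names an input as the negative control of ChIP, and whether MACS2 was given it is not stated in the sources used here. The deposited fold enrichment is a ratio at the summit, the deposited −log10 values are p-values and q-values, and the deposited score is 10 times one of them, rounded down. The score followed the p-value in all 733 peaks of one list and the q-value in all 18816 of the other. The antibodies were inferred from this, from the number of peaks and, for H3K4me3-ChIP, from peak width. The NF-Y-ChIP list has the number of regions the study gives, and the H3K4me3-ChIP list does not.

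TSSs were the 5′ ends of all GENCODE M21 transcripts. NF-Y-ChIP was assigned by the summit and H3K4me3-ChIP by the nearest edge, within 1000 bp. Sequences were read from the RefSeq copy of GRCm38.p6, in which no peak passed a chromosome end. Divergent neighbours were protein-coding 5′ ends on the opposite strand within 1000 bp upstream. The members and gene lists were chosen with earlier results of these data known. The genes named were all 38, other pathway genes with an NF-Y-ChIP summit, and divergent neighbours of genes with NF-Y-ChIP peaks. Vcp and the neighbours Emc3, Mospd2, Npat, Ankrd49, Cep89, Golt1b and Umad1 were named after their values were seen. Alternatives covered distances, TSS sets, peak thresholds and motif definitions. Sequences are printed for part of the genes, and others are not reported here. Functions were tested on simulated data. The work used pysam 0.24.0, pandas 2.3.3, NumPy 2.4.6, SciPy 1.17.1 and matplotlib 3.10.9 under Python 3.11.15.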

Additional observations from a re-analysis of the deposited data

How the results depend on the processing

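Of 42 values under alternative settings, 9 moved, which means a count by over 1.5 times or the share of marked genes out of its Wilson interval. The other 33 include smaller changes, such as 28 to 20 genes with CCAAT. The count of 3 repair genes with a promoter summit became 4 with a limit of 5000 bp, by adding Fancg, and 2 with the stronger 50% of NF-Y-ChIP peaks, which left out Xrcc3 and the nearer Brca1 peak. Brca1 then rested on the farther peak, 81 bp from a TSS of Nbr1. Brca1, Chek2 and Xrcc3 were the genes called under the other 6 settings. Restricting NF-Y-ChIP to its stronger 50% also lowered the other pathway genes from 10 to 5 and the share of marked genes from 5.03 to 2.69%. That share was 5.67% at 5000 bp, 4.55% with gene 5′ ends only, 5.69% by the study's rule and 3.17% over all protein-coding genes. CCAAT at any TSS, marked or not, was present for 28 repair genes, for 18 with gene 5′ ends only and for 8 with the extended consensus RRCCAATSR. The shares of marked genes under these settings were 66.5, 38.1 and 22.6%. E2F words were at 25 repair genes, and at 15 with gene 5′ ends only, where 14.3% of marked genes had a word. The restriction to marked TSSs, for CCAAT and E2F words, and the other E2F settings (any TSS, gene 5′ ends, without TTGGCGC) were chosen after the data were seen. With the H3K4me3-ChIP summit in place of the peak edge, 37 of 38 genes were marked, without Brca1 (the summit of its peak is at −1177 bp), and with the stronger 50% of peaks 32 were. No paired analysis was possible because each antibody had 1 library. Depth is unknown, so genes without a peak cannot be told apart from genes with weak binding.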
